A study of Mus musculus with 21 samples.

Results

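The 10 genes described here encode inducible brakes on MAP kinase signalling: 5 dual-specificity phosphatases (Dusp1, Dusp4, Dusp5, Dusp6 and Dusp14), 3 Sprouty proteins (Spry1, Spry2 and Spry4) and 2 Sprouty-related Spred proteins (Spred1 and Spred2). They were chosen by gene symbol, with earlier results of these data known, and all 10 were found among the 24984 genes of the count table. The shares of genes called among them therefore describe these genes and are not a test of the set. Nascent RNA was measured in primary cortical cultures of CD1 mice at day 17 in vitro by BrU-seq, in which RNA made while bromouridine is present is isolated and sequenced. Preincubation lasted 30 min in every culture and was with DMSO (the solvent) alone or with MM401 at 25 µM, a peptidomimetic that blocks the contact of the histone methyltransferase MLL1 with WDR5. Cultures then received 40 µM bicuculline methiodide, a GABA-A receptor blocker that raises network activity, or sterile water, and all were labelled with bromouridine at 2 mM for the final 30 min.

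The 7 groups were DMSO with water for 4 h, DMSO with bicuculline for 1 h, DMSO with bicuculline for 4 h, MM401 with water for 1 h, MM401 with water for 4 h, MM401 with bicuculline for 1 h and MM401 with bicuculline for 4 h. Each had 3 biological replicates of mixed sex, per the labels' protocols. A DMSO group with water for 1 h was not analysed here, so both bicuculline times under DMSO were set against the same water libraries of 4 h. The MM401 water 4 h library of replicate 3 held 316741 counts, 0.503% of the median of the others, with 281 counts over the 10 genes. It was left out, which leaves that group with 2 libraries. The 20 libraries used held 49886348 to 87939384 counts each, and the lowest count of any of the 10 genes in any of them was 212. All 10 passed the filter on low counts, which kept 16959 genes.

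MAP kinase cascades carry signals from growth factor receptors and from calcium entry to the nucleus, and in neurons the ERK branch links synaptic activity to transcription. The phosphatases remove phosphate from both the threonine and the tyrosine of the activation loop of ERK, JNK or p38 and so switch them off. Sprouty and Spred proteins act upstream, where they restrain the passage from receptor tyrosine kinases to Ras and Raf. Many of these genes are themselves switched on by MAP kinase activity, which makes them feedback inhibitors.

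Values are CPM, scaled counts relative to TMM-scaled library totals, and differences between genes are given per kb of gene span, introns included. In the DMSO water cultures Dusp6 and Spry2 had the highest level per kb, at 13.4 ± 2.32 and 11 ± 1.90 CPM per kb (SD, n = 3), and these neighbours in the order overlapped. Spred1 followed at 6.68 ± 0.422 CPM per kb and Dusp1 at 5.40 ± 0.701 CPM per kb, each apart from its neighbours in all 3 libraries. Spred2 (2.81 ± 0.185 CPM per kb) and Spry4 (2.44 ± 0.412 CPM per kb) overlapped with each other and lay above the rest. Dusp14 (1.39 ± 0.0903 CPM per kb), Dusp4 (1.38 ± 0.193 CPM per kb), Spry1 (1.21 ± 0.403 CPM per kb) and Dusp5 (0.884 ± 0.0591 CPM per kb) closed the order, each overlapping with the next. After 1 h of bicuculline Dusp1 stood at 39.6 ± 6.94 CPM per kb and Dusp6 at 29.3 ± 4.71 CPM per kb, with overlapping libraries. Dusp14 had moved from the seventh to the fifth place, at 7.41 ± 0.648 CPM per kb, and overlapped with Spred1.

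**Figure D1:**
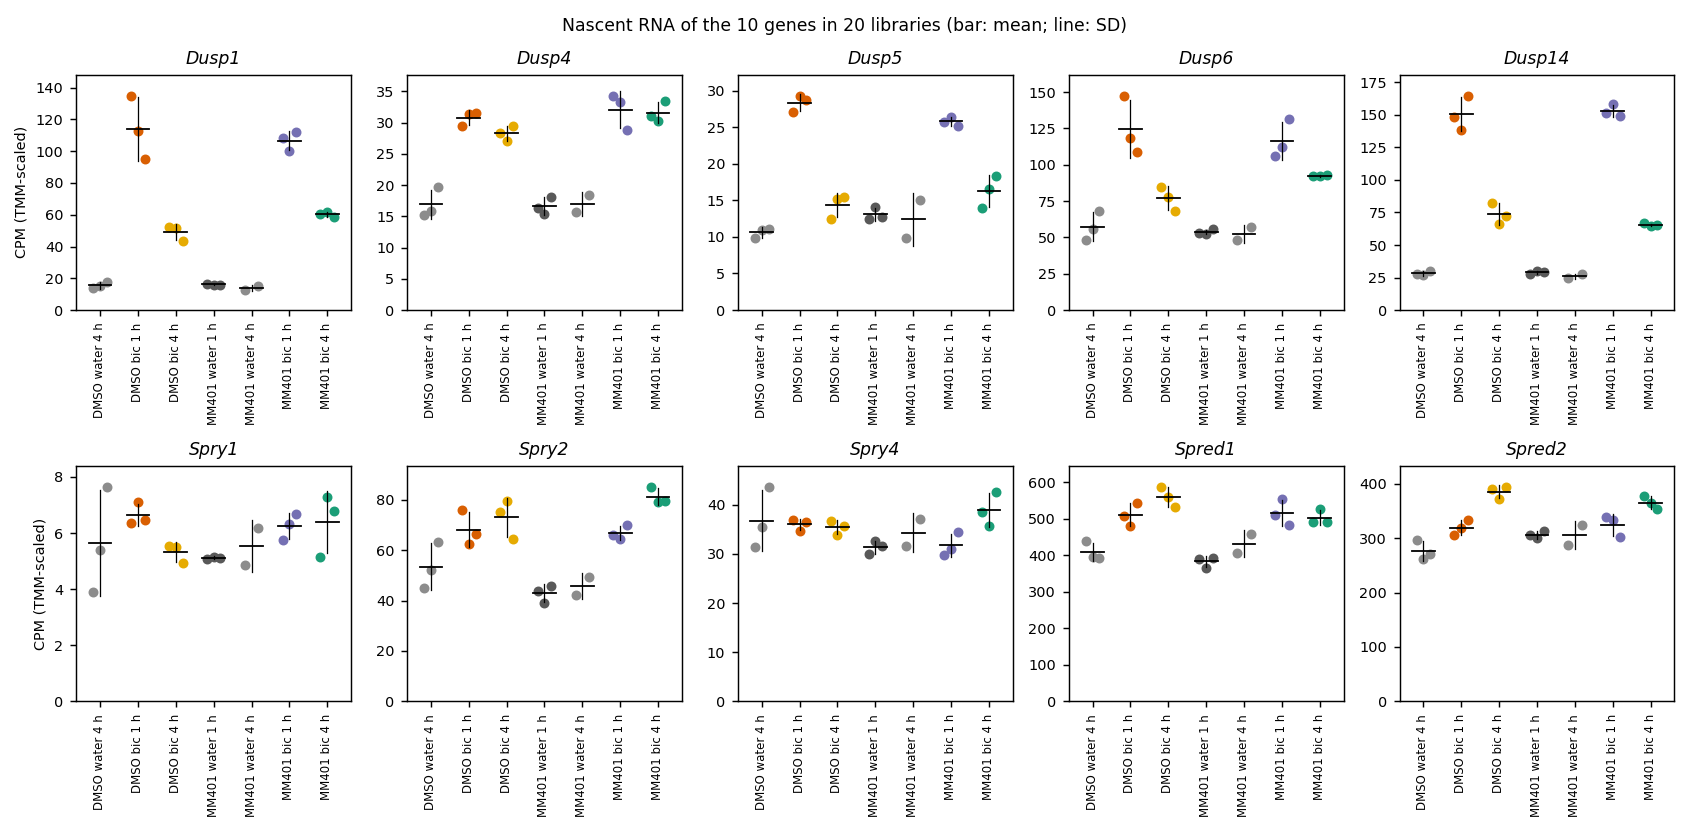
TMM-scaled CPM (y axis, linear, from 0) of each gene in the 20 libraries, by group (x axis), with 1 point per library, a bar at the group mean and a line for the SD. The 3 DMSO bicuculline 1 h libraries of Dusp14 sit between 138 and 165 CPM, all above its water libraries, while those of Spry4 lie within its water range.

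The labelled cell type was checked against fixed marker lists. The 8 neuronal markers summed to between 4849 and 7845 CPM in the 20 libraries, the 5 astrocyte markers to between 407 and 841 CPM, the 7 oligodendrocyte lineage markers to between 101 and 138 CPM and the 5 microglial markers to between 21.1 and 36.1 CPM. The 4 endothelial and 5 fibroblast and mural markers summed to at most 3.89 and 6.98 CPM, and of these Cldn5 and Lum were at 0 counts in some libraries. Markers of glia were thus present besides those of neurons. In such bulk RNA, fewer cells of a type and less RNA per cell cannot be told apart. Astrocyte marker sums had medians of 635 CPM in DMSO water and 781 CPM after 1 h of bicuculline, with 2 of the 5 markers called higher and 1 lower, and of 591 CPM in MM401 water at 1 h and 823 CPM after 1 h of bicuculline, with 3 called higher. Neuronal marker sums had medians of 5225 CPM in DMSO water, 6343 CPM after 1 h and 7692 CPM after 4 h of bicuculline. At 1 h, 3 of the 8 markers were called higher and 2 lower, with a median log2 difference of 0.064. At 4 h, 5 were called higher and 2 lower, with a median log2 difference of 0.45, beside 0.45 for the 10 genes. Under MM401 the neuronal medians were 4950 CPM in water and 6588 CPM with bicuculline at 1 h, with 4 markers called higher and 1 lower. At 4 h they were 5775 and 7011 CPM, with 4 called higher and 2 lower. In the latter comparison the astrocyte medians were 454 and 615 CPM, with 2 of 5 markers called higher, and the microglial ones 24.4 and 36.1 CPM, with 2 of the 4 tested called higher. Between 1 h and 4 h of bicuculline, 2 of the 5 astrocyte markers were called lower and 1 higher under either pretreatment, with medians of 781 and 641 CPM under DMSO and 823 and 615 CPM under MM401. Of the 8 neuronal markers 4 were called higher and 1 lower under DMSO, and 3 higher and 2 lower under MM401. Of the 7 oligodendrocyte lineage markers 1 was called higher under DMSO and 3 under MM401, with 0 lower. For the 4 microglial markers tested these counts were 1 and 2 higher, with 0 lower. The part of these markers in the results below was not tested.

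The question of the first comparison was how the feedback genes respond to raised network activity at 1 h. All 5 phosphatase genes rose in DMSO cultures after 1 h of bicuculline, by between 1.82-fold and 7.32-fold against water, and Dusp1 and Dusp14 rose most. Spry2, Spred1 and Spred2 rose by 1.16-fold to 1.27-fold, and Spry1 and Spry4 were not called. Together 8 of the 10 genes were called higher and 0 lower by edgeR's quasi-likelihood test at a Benjamini-Hochberg adjusted p under 0.05, where 20% of all genes tested were called higher and 24.5% lower. The median log2 difference of the 10 genes was 0.61, beside -0.038 over all genes. In 7 of the 10 the bicuculline libraries lay wholly above the water libraries, as they did for 21.3% of all genes.

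Dusp1, a phosphatase of p38, JNK and ERK in the nucleus, lies on chromosome 17 (26505590 to 26508472, minus strand, mm10). It had 13.9, 14.9 and 17.8 CPM in the DMSO water libraries and 135, 113 and 94.8 CPM after 1 h of bicuculline. The groups were far apart, and its log2 difference was 2.87 ± 0.12 (SE; edgeR adjusted p = 6.09e-13). Dusp14 (chromosome 11, 84048044 to 84068357, minus strand), a small phosphatase without the kinase-docking domain of the classical MAP kinase phosphatases, went from 27.4, 27.0 and 30.4 CPM to 148, 138 and 165 CPM. Its log2 difference of 2.41 ± 0.077 (edgeR adjusted p = 6.81e-16) had the smaller error of the pair.

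Dusp5, a nuclear phosphatase selective for ERK, lies on chromosome 19 (53529317 to 53541322, plus strand). It had 9.80, 10.9 and 11.1 CPM in water and 27.0, 29.3 and 28.7 CPM at 1 h, a log2 difference of 1.41 ± 0.12 (edgeR adjusted p = 7.70e-09). Replicates within each group were close, and the groups did not overlap. Dusp6, the cytoplasmic phosphatase selective for ERK (chromosome 10, 99263230 to 99267489, plus strand), had 48.3, 55.7 and 67.8 CPM in water and 147, 118 and 109 CPM at 1 h. The log2 difference was 1.12 ± 0.12 (edgeR adjusted p = 1.26e-06), with the bicuculline library of replicate 1 the highest. Dusp4, another nuclear phosphatase of ERK and JNK (chromosome 8, 34807609 to 34819894, plus strand), went from 15.2, 15.9 and 19.6 CPM to 29.4, 31.4 and 31.5 CPM. Its log2 difference of 0.86 ± 0.091 (edgeR adjusted p = 1.07e-07) was the smallest of the 5.

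The promoters of 4 of the phosphatase genes are printed because their transcription changed most after 1 h of bicuculline and because they differ in the short motifs they hold. Each runs from 250 bases before to 50 after the start site, 5′ to 3′ on the gene's strand, from RefSeq on GRCm38.p6 (the assembly behind mm10). The Dusp5 window is set on the RefSeq start, which lies 172 bases before the table's, and that of Dusp14 on the table's start, although the RefSeq gene reaches 899 bases further upstream, so motif positions hold for these starts only. The positions are chr17:26508423-26508722 for Dusp1 (minus strand), chr11:84068308-84068607 for Dusp14 (minus strand), chr19:53528895-53529194 for Dusp5 (plus strand) and chr10:99262981-99263280 for Dusp6 (plus strand). Capitals mark matches to the motifs searched for on both strands: the full CRE (TGACGTCA), its shorter core (TGACG, which the full CRE contains), the AP-1 site (TGANTCA), an EGR site (GCGNGGGCG), an ETS site (CCGGAA) and the CArG box.
Dusp1: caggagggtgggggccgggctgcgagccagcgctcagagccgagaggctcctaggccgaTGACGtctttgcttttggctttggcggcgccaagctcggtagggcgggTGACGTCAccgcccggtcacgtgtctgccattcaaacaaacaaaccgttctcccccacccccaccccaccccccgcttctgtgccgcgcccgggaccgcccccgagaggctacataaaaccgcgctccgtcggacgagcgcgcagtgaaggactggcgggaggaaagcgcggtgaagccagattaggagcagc
Dusp14: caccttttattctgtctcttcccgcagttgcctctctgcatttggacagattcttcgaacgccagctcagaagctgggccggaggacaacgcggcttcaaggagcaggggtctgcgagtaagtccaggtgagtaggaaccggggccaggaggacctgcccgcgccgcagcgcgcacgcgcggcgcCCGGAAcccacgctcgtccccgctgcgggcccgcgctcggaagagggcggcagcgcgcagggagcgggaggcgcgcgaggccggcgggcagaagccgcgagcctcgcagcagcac
Dusp5: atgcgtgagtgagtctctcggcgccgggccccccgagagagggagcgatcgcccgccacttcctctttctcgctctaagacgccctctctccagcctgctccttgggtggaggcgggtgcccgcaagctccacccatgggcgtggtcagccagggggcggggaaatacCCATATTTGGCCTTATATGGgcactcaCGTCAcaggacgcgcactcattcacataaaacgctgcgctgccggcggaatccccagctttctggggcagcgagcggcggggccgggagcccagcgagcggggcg
Dusp6: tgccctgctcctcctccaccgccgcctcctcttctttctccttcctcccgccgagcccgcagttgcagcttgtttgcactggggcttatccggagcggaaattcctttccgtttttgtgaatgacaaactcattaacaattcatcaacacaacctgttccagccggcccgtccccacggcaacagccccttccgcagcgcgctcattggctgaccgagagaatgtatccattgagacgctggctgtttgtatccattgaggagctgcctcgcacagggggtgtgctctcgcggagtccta
Dusp1 held a full CRE at -143 to -136 from the start site and a second CRE core at -191 to -187. Dusp5 held a pair of adjoining CArG boxes, CCATATTTGG at -82 to -73 and CCTTATATGG at -72 to -63, and a CRE core on the other strand at -55 to -51. Dusp14 held an ETS site at -65 to -60, and the Dusp6 window held none of the 6 motifs.

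Promoters of 8 of the 10 genes were matched by symbol. Among the other 4, Spry2 had an ETS site at 34 to 39 after the start, Spred2 a CRE core at -51 to -47, and Spry1 and Spred1 held none of the motifs. Of the 8, 1 held the full CRE, 3 the CRE core, 2 the ETS site, 1 the CArG box, and 0 the AP-1 or EGR site. Among all 32851 mouse promoters of the same length the shares were 1.79% for the full CRE, 20.8% for the core, 14.9% for the ETS site, 1.63% for the CArG box, 7.81% for the AP-1 site and 5.55% for the EGR site. A match is a stretch of letters and not a measured binding site.

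**Figure D2:**
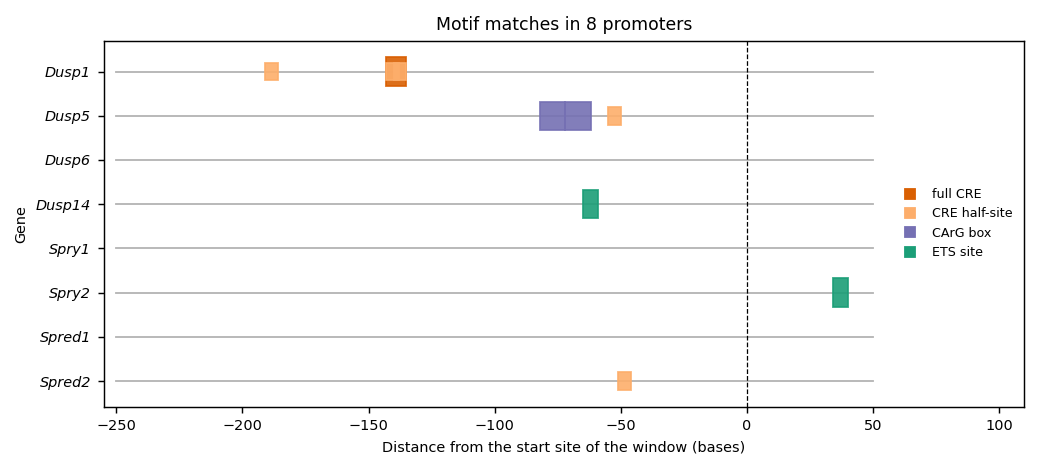
Positions of motif matches (coloured marks) in the 300-base promoter windows of 8 genes (rows), as distance in bases from the start site on which each window is set (x axis, linear). Dusp1 and Dusp5 hold matches to more than 1 kind of motif, and Dusp6, Spry1 and Spred1 hold none.

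Among the Sprouty genes, Spry2 (chromosome 14, 105891946 to 105896819, minus strand), a cytoplasmic inhibitor of Ras-ERK signalling below growth factor receptors, had 45.0, 52.0 and 63.3 CPM in DMSO water and 75.8, 62.3 and 66.4 CPM after 1 h. These groups overlapped, and the log2 difference of 0.35 ± 0.11 was called (edgeR adjusted p = 0.0117). Without the DMSO water library of replicate 1 it was 0.24 with an adjusted p of 0.0601, and without the bicuculline library of replicate 1 it was 0.27 with an adjusted p of 0.0701. Spry1 (chromosome 3, 37639946 to 37644599, plus strand), of the same family, went from 3.91, 5.41 and 7.63 CPM to 6.36, 7.11 and 6.46 CPM, which is 0.23 ± 0.17 on the log2 scale (edgeR adjusted p = 0.281). Its water libraries spread the widest relative to their mean of the 10 genes. Without the DMSO water library of replicate 3, its difference was 0.52 with an adjusted p of 0.00735. Spry4 (chromosome 18, 38586246 to 38601347, minus strand), also an inhibitor of receptor-driven ERK signalling, had 31.3, 35.4 and 43.6 CPM in water and 36.9, 34.8 and 36.5 CPM at 1 h. All 3 bicuculline libraries lay within the water range, and the 95% interval of the log2 difference ran from -0.22 to 0.16.

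In the DMSO water libraries Dusp1, Dusp4, Dusp5, Dusp6, Spry1, Spry2 and Spry4 were all lowest in replicate 1 and highest in replicate 3, and Dusp14, Spred1 and Spred2 were not. The summed astrocyte markers stood in the same order in these libraries, at 438, 635 and 658 CPM, and the summed neuronal markers in the opposite order, at 6014, 5225 and 4849 CPM. Whether these have a part in the spread was not tested.

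Spred1 and Spred2, which recruit neurofibromin and restrain Ras, are the longest and most abundantly counted of the 10 genes. Spred1 (chromosome 2, 117121070 to 117182277, plus strand) went from 439, 394 and 393 CPM in DMSO water to 507, 480 and 544 CPM at 1 h, a log2 difference of 0.32 ± 0.073 (edgeR adjusted p = 0.00114). Spred2 (chromosome 11, 19924441 to 20022597, plus strand) had 296, 261 and 271 CPM in water and 305, 319 and 333 CPM at 1 h. The groups were apart for both genes, but by little in Spred2, where the log2 difference was 0.21 ± 0.065 (edgeR adjusted p = 0.0123). With plain library sizes in place of TMM, which shifted the median of all genes to -0.23, Spred1 stood at 0.13 (adjusted p = 0.0380), Spry2 at 0.15 (adjusted p = 0.359) and Spred2 at 0.021 (adjusted p = 0.755). Spry2 (adjusted p = 0.0526) and Spred2 (adjusted p = 0.0554) were also not called with the shallow library included. Over all alternatives the adjusted p ran from 0.000493 to 0.359 for Spry2 and from 0.00154 to 0.755 for Spred2.

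**Figure D3:**
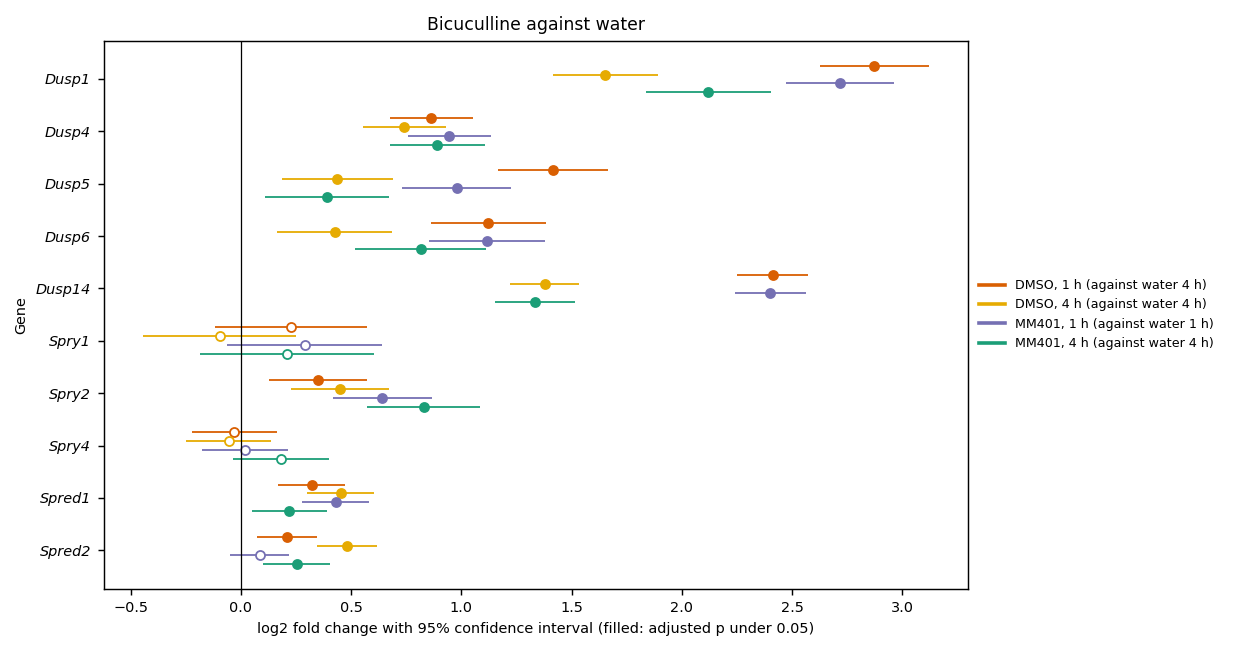
Log2 fold change of bicuculline against water (x axis, linear) with its 95% confidence interval for each gene (rows), for 1 h and 4 h under DMSO and MM401, with filled points for an adjusted p under 0.05. Dusp1 and Dusp14 lie farthest to the right in all 4 comparisons, and the intervals of Spry1 and Spry4 include 0.

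The next comparison asked what was left of the response after 4 h of bicuculline. Dusp1, Dusp14 and Dusp4 remained well above water in DMSO cultures, at 3.15-fold, 2.60-fold and 1.67-fold, Dusp5 and Dusp6 were at 1.35-fold and 1.34-fold, and Spry2, Spred1 and Spred2 were at 1.37-fold to 1.39-fold. As at 1 h, 8 of the 10 genes were called higher and 0 lower (edgeR, adjusted p under 0.05), beside 23.7% of all genes called higher and 25.5% lower. The median log2 difference was 0.45, beside -0.024 over all genes, and in 8 of the 10 genes the libraries did not overlap, as in 24.6% of all genes. The water libraries are those of the 1 h comparison, so the pair of comparisons is not independent.

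Dusp1 had 52.0, 51.7 and 43.4 CPM after 4 h, a log2 difference from water of 1.65 ± 0.11 (edgeR adjusted p = 8.76e-10). Dusp14 had 82.5, 65.8 and 72.2 CPM, with a difference of 1.38 ± 0.076 (edgeR adjusted p = 3.79e-12). Dusp4 had 28.3, 27.1 and 29.4 CPM, with a difference of 0.74 ± 0.090 (edgeR adjusted p = 5.99e-07). These 3 genes stood above every water library in every 4 h library. Dusp5 had 12.5, 15.2 and 15.4 CPM (log2 difference 0.44 ± 0.12, edgeR adjusted p = 0.00463). Dusp6 had 84.9, 77.9 and 68.2 CPM (0.43 ± 0.12, edgeR adjusted p = 0.00817), and its lowest bicuculline library was just above its highest water library.

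Spry2 had 75.3, 79.4 and 64.5 CPM after 4 h (log2 difference 0.45 ± 0.11, edgeR adjusted p = 0.00165), all above water. Spred1 had 586, 559 and 532 CPM (0.45 ± 0.073, edgeR adjusted p = 2.44e-05), and Spred2 had 391, 371 and 394 CPM (0.48 ± 0.065, edgeR adjusted p = 2.63e-06). In both genes every 4 h library was above every water library. Spry1, at 5.55, 5.50 and 4.92 CPM, and Spry4, at 36.6, 33.9 and 35.8 CPM, lay within their water ranges, with log2 differences of -0.096 ± 0.17 (edgeR adjusted p = 0.668) and -0.056 ± 0.093 (edgeR adjusted p = 0.653). With plain library sizes, which moved the median of all genes to -0.30, Dusp5 (0.16, adjusted p = 0.335), Dusp6 (0.14, adjusted p = 0.472) and Spry2 (0.17, adjusted p = 0.301) were not called, Dusp4, Spred1 and Spred2 were called at 0.46, 0.18 and 0.21, and Spry4 was called lower (-0.34, adjusted p = 0.0260). Dusp6 was also not called with the shallow library included (adjusted p = 0.0733). Over all alternatives the adjusted p ran from 0.000284 to 0.335 for Dusp5, from 0.000507 to 0.472 for Dusp6 and from 5.6e-05 to 0.301 for Spry2.

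Set directly against 1 h, 4 h of bicuculline under DMSO gave lower levels for 4 of the 5 phosphatases and no lower call among the Sprouty and Spred genes. Dusp1 fell by 1.22 ± 0.11 on the log2 scale (edgeR adjusted p = 7.50e-08), Dusp14 by 1.03 ± 0.074 (edgeR adjusted p = 5.43e-10), Dusp5 by 0.98 ± 0.12 (edgeR adjusted p = 1.43e-06) and Dusp6 by 0.70 ± 0.12 (edgeR adjusted p = 0.000231). In these 4 genes and Spry1 every 4 h library lay below every 1 h library, as in 19.9% of all genes. Dusp4 differed by -0.12 ± 0.089 (edgeR adjusted p = 0.320), with a 95% interval from -0.31 to 0.063. Of the rise in its mean at 1 h, 82.0% was present at 4 h, where Dusp14 kept 37.0%, Dusp1 34.0%, Dusp6 29.2% and Dusp5 21.2%. Spred2 was the one gene called higher at 4 h than at 1 h, rising by 0.27 ± 0.065 between 1 h and 4 h (edgeR adjusted p = 0.00225, or 0.0737 with the shallow library included). The count was therefore 4 of 10 lower and 1 higher, beside 15.2% and 19.1% of all genes. Spry1 (-0.32 ± 0.17, edgeR adjusted p = 0.147), Spry2 (0.10 ± 0.11, edgeR adjusted p = 0.514), Spry4 (-0.025 ± 0.093, edgeR adjusted p = 0.870) and Spred1 (0.13 ± 0.073, edgeR adjusted p = 0.179) were not called.

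**Figure D4:**
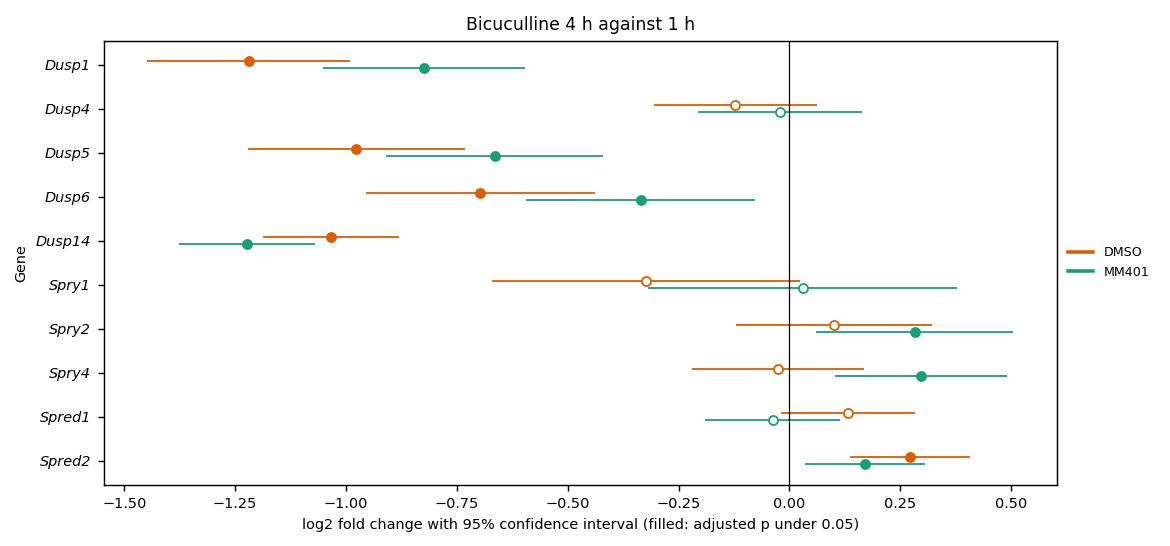
Log2 fold change of 4 h against 1 h of bicuculline (x axis, linear) with its 95% confidence interval for each gene (rows), under DMSO and under MM401, with filled points for an adjusted p under 0.05. Dusp1, Dusp5, Dusp6 and Dusp14 lie to the left of 0 under both pretreatments, and the intervals of Dusp4 include 0.

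Cultures preincubated with MM401 addressed whether the feedback genes still respond after this compound. Whether MLL1 was inhibited in them is not shown by the values used here. After 1 h of bicuculline, against MM401 cultures in water for 1 h, the same 5 phosphatases, Spry2 and Spred1 rose, while Spry1, Spry4 and Spred2 were not called. That is 7 of 10 genes higher and 0 lower (edgeR, adjusted p under 0.05), beside 18.1% of all genes called higher and 21.8% lower. The median log2 difference was 0.79, beside -0.0018 over all genes, and 8 of the 10 genes had bicuculline libraries wholly above water, against 23.3% of all genes.

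Dusp1 had 16.6, 16.0 and 16.1 CPM in MM401 water at 1 h and 108, 99.9 and 112 CPM with bicuculline, a log2 difference of 2.72 ± 0.12 (edgeR adjusted p = 1.52e-12). Dusp14 went from 27.6, 29.8 and 29.5 CPM to 151, 158 and 149 CPM, a difference of 2.40 ± 0.077 (edgeR adjusted p = 7.69e-16). Dusp6 went from 53.2, 52.6 and 55.6 CPM to 106, 112 and 131 CPM, a difference of 1.12 ± 0.12 (edgeR adjusted p = 1.58e-06). The MM401 water replicates of Dusp1 and Dusp6 lay closer together than their DMSO water replicates of 4 h. Dusp5 went from 12.4, 14.1 and 12.7 CPM to 25.7, 26.4 and 25.2 CPM (0.98 ± 0.12, edgeR adjusted p = 1.42e-06). Dusp4 went from 16.4, 15.4 and 18.1 CPM to 34.3, 33.2 and 28.7 CPM (0.95 ± 0.091, edgeR adjusted p = 2.99e-08). All 5 phosphatases were thus apart from water in every library.

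Spry2 went from 43.9, 38.9 and 45.8 CPM to 66.1, 64.3 and 70.0 CPM, a log2 difference of 0.64 ± 0.11 (edgeR adjusted p = 9.77e-05), and here its groups did not overlap. Spred1 went from 390, 366 and 393 CPM to 510, 554 and 483 CPM, a difference of 0.43 ± 0.073 (edgeR adjusted p = 6.98e-05). With MM401 water at 4 h as the reference its difference was 0.26 (adjusted p = 0.0166), and with plain library sizes 0.21 (adjusted p = 0.00167). Spred2 had 305, 300 and 313 CPM in water and 339, 334 and 301 CPM with bicuculline, and its difference of 0.085 ± 0.065 was not called (edgeR adjusted p = 0.323). With plain library sizes, which moved the median of all genes to -0.21, Spred2 was called lower (-0.13, adjusted p = 0.0347). Spry1 had 5.08, 5.16 and 5.13 CPM in water and 5.74, 6.33 and 6.67 CPM with bicuculline, which did not overlap and differed by 0.29 ± 0.17 (edgeR adjusted p = 0.186). Spry4, at 29.9, 32.5 and 31.5 CPM and 29.8, 31.0 and 34.4 CPM, differed by 0.020 ± 0.094 (edgeR adjusted p = 0.890).

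After 4 h of bicuculline under MM401, 8 of the 10 genes were called higher than MM401 water at 4 h and 0 lower (edgeR, adjusted p under 0.05), beside 23% of all genes called higher and 21.7% lower. Dusp1 led at 4.35-fold, followed by Dusp14 at 2.52-fold and Dusp4, Dusp6 and Spry2 at 1.76-fold to 1.85-fold. Dusp5, Spred1 and Spred2 were higher by at most 1.31-fold, and Spry1 and Spry4 were not called. The median log2 difference was 0.60, beside 0.016 over all genes, and 7 of the 10 genes did not overlap with water, against 34.2% of all genes in this comparison of 3 with 2 libraries. Without the MM401 water 4 h library of replicate 1, which leaves 1 water library, Dusp5 stood at 0.096, Spred1 at 0.11 and Spred2 at 0.15 on the log2 scale.

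Dusp1 had 12.4 and 15.4 CPM in the 2 water libraries and 60.2, 62.0 and 58.6 CPM with bicuculline (log2 difference 2.12 ± 0.14, edgeR adjusted p = 8.18e-10). Dusp14 had 24.7 and 27.3 CPM and then 66.6, 64.6 and 65.2 CPM (1.33 ± 0.088, edgeR adjusted p = 1.26e-10). Dusp4 had 15.7 and 18.4 CPM and then 31.0, 30.2 and 33.5 CPM (0.89 ± 0.10, edgeR adjusted p = 5.09e-07). The bicuculline replicates of these genes were close together and far above water. Dusp6 had 48.0 and 57.0 CPM and then 92.0, 92.2 and 92.9 CPM (0.82 ± 0.14, edgeR adjusted p = 0.000162). Spry2 had 42.1 and 49.4 CPM and then 84.9, 79.2 and 79.6 CPM (0.83 ± 0.12, edgeR adjusted p = 2.13e-05). Spry2 was the one Sprouty gene called at 4 h under either pretreatment.

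Dusp5 had 9.83 and 15 CPM in water and 14, 16.5 and 18.3 CPM with bicuculline, which overlapped (log2 difference 0.39 ± 0.14, edgeR adjusted p = 0.0241). Without the water library of replicate 1 its difference was 0.096 (adjusted p = 0.616), and without that of replicate 2 it was 0.69 (adjusted p = 0.000594). The value therefore rested on which of the 2 water libraries was used. Without the bicuculline library of replicate 2 or 3 Dusp5 was also not called (adjusted p = 0.0533 and 0.104). Spred1 had 406 and 458 CPM and then 490, 527 and 490 CPM (0.22 ± 0.082, edgeR adjusted p = 0.0341). Spred1 was not called without the water library of replicate 1 (0.11, adjusted p = 0.459) or 2 (0.28, adjusted p = 0.0592), nor without the bicuculline library of replicate 2 (0.18, adjusted p = 0.113). Spred2 had 288 and 324 CPM and then 377, 364 and 354 CPM (0.25 ± 0.073, edgeR adjusted p = 0.00738, or 0.15 with an adjusted p of 0.242 without the water library of replicate 1). With the shallow library included, Dusp5 (adjusted p = 0.0631) and Spred2 (0.16, adjusted p = 0.182) were not called, and with plain library sizes Dusp5 (adjusted p = 0.101) and Spred1 (0.14, adjusted p = 0.0536) were not. The adjusted p ranged over all alternatives from 0.000594 to 0.616 for Dusp5, from 0.0312 to 0.459 for Spred1 and from 0.0053 to 0.242 for Spred2. Spry1, at 4.87 and 6.19 CPM and then 5.14, 7.28 and 6.78 CPM, differed by 0.21 ± 0.19 (edgeR adjusted p = 0.391). Spry4, at 31.5 and 37.2 CPM and then 38.6, 35.8 and 42.6 CPM, differed by 0.18 ± 0.10 (edgeR adjusted p = 0.162).

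Between 1 h and 4 h of bicuculline under MM401, Dusp1 fell by 0.82 ± 0.11 on the log2 scale (edgeR adjusted p = 9.11e-06), Dusp14 by 1.22 ± 0.074 (edgeR adjusted p = 9.93e-11) and Dusp5 by 0.67 ± 0.12 (edgeR adjusted p = 0.000157). These 3 falls were called under every alternative. Dusp6 fell by 0.34 ± 0.12 (edgeR adjusted p = 0.0427), and Spry2, Spry4 and Spred2 rose by 0.28 ± 0.11 (edgeR adjusted p = 0.0469), 0.30 ± 0.094 (edgeR adjusted p = 0.0174) and 0.17 ± 0.065 (edgeR adjusted p = 0.0487). The calls of Dusp6, Spry2 and Spred2 were each lost under 9 of 11 alternatives and that of Spry4 under 4, so the 4 lower and 3 higher calls, beside 16% and 17.5% of all genes, came down to 3 to 5 when any library of these 2 groups was left out. Spred2 stood at 0.089 without the MM401 bicuculline 1 h library of replicate 3. Dusp4 (-0.021 ± 0.089, edgeR adjusted p = 0.887), Spry1 (0.030 ± 0.17, edgeR adjusted p = 0.915) and Spred1 (-0.038 ± 0.073, edgeR adjusted p = 0.739) were not called. Of the rise in the mean at 1 h, 94.3% was present at 4 h for Dusp4, 63.6% for Dusp6, 51.3% for Dusp1 and 31.8% for Dusp14, each against water of the same time. No share is given for Dusp5, whose 2 water libraries of 4 h differed too much. Whether these shares differ from those under DMSO was not tested.

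MM401 was then set directly against DMSO. In water at 4 h, 0 of the 10 genes were called by edgeR, beside 0.0826% of all genes, and DESeq2 called 0 of the 10 and 162 of all genes. An unadjusted edgeR p under 0.05 was found for 0 of the 10, beside 2194 of all 16959 genes tested. The log2 differences ran from -0.23 to 0.22. After 1 h of bicuculline, 0 of the 10 were called by edgeR, beside 0.0059% of all genes. At an unadjusted p under 0.05 stood 0 of the 10, beside 540 of all 16959 genes tested. All MM401 libraries lay below all DMSO libraries for Dusp5 (-0.14 ± 0.12) and Spry4 (-0.18 ± 0.094). The share of all genes so placed is not given here. DESeq2 called 0 of the 10 and 14 of all genes, and edgeR's differences ran from -0.18 to 0.059. Over the 10 genes the 95% intervals at 1 h reached from -0.43 to 0.26, the widest being that of the sparsely counted Spry1. In MM401 water, 4 h against 1 h gave 0 calls by edgeR, beside 0.867% of all genes, and 0 by DESeq2, which called 275 of all genes. By edgeR 1 of the 10, Spred1 (0.17 ± 0.081), had an unadjusted p under 0.05, beside 1699 of all 16959 genes tested. Its libraries of 4 h lay above all those of 1 h, and those of Dusp1 (-0.23 ± 0.13) and Dusp14 (-0.16 ± 0.086) lay below. For this pair of groups the share of all genes so placed is not given either.

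After 4 h of bicuculline, Dusp1 stood at 60.2, 62.0 and 58.6 CPM under MM401 and 52.0, 51.7 and 43.4 CPM under DMSO. The libraries did not overlap, and the log2 difference was 0.30 ± 0.11, with a 95% interval from 0.070 to 0.53 and an edgeR adjusted p of 0.639 (unadjusted p = 0.0133). Dusp6 (0.26 ± 0.12, edgeR adjusted p = 0.639) and Dusp4 (0.16 ± 0.089, edgeR adjusted p = 0.649) also had all MM401 libraries above all DMSO libraries, and Spred1 (-0.15 ± 0.073, edgeR adjusted p = 0.639) had all of them below. That is 3 of 10 genes apart upwards and 1 downwards, beside 6.3% and 11.3% of all genes. None of the 10 was called by edgeR, beside 0% of all genes called, and DESeq2 called 0 of the 10 and 7 of all genes. At an unadjusted edgeR p under 0.05 stood 4 of the 10 (Dusp1, Dusp6, Dusp14 and Spred1), beside 1309 of all 16959 genes tested. The 95% intervals of the 10 genes lay between -0.32 and 0.61.

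**Figure D5:**
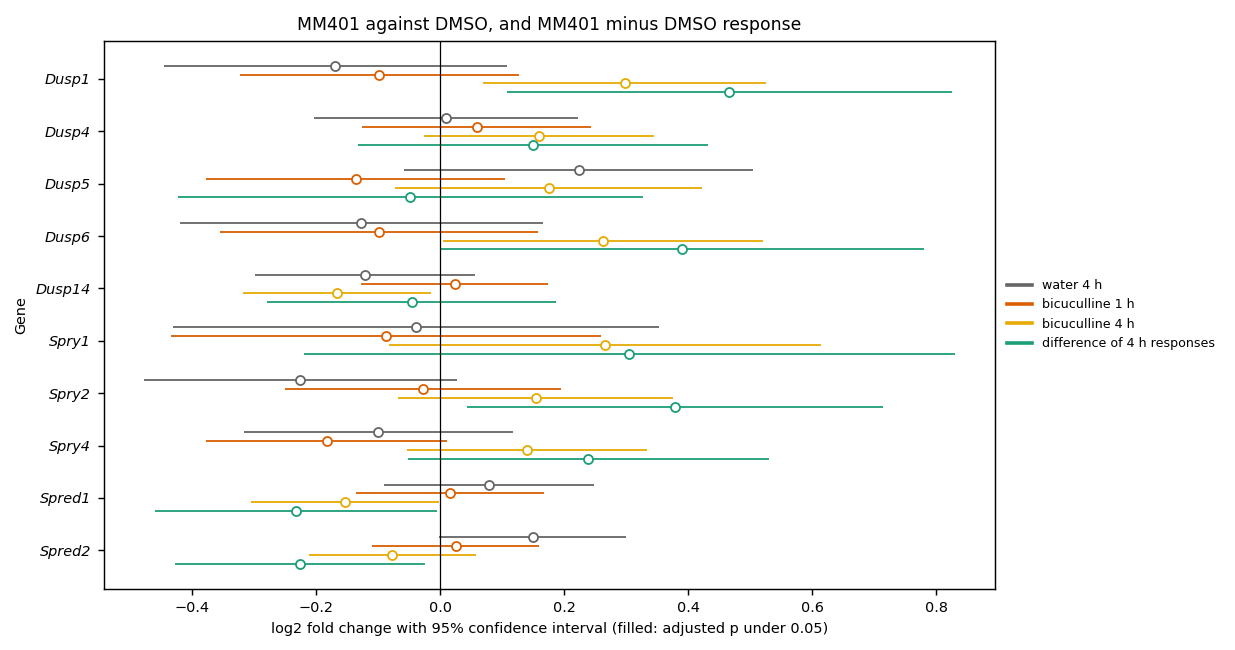
Log2 difference of MM401 and DMSO cultures (x axis, linear) with its 95% confidence interval for each gene (rows), with water for 4 h, with bicuculline for 1 h or 4 h, and as the difference of the 4 h bicuculline responses. All points are hollow, since 0 of the 10 genes reached an adjusted p under 0.05, and Dusp1 has the largest of the 4 h differences of responses.

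The difference of the responses themselves, that under MM401 minus that under DMSO, was tested as an interaction. At 4 h it was 0.47 ± 0.17 for Dusp1 (edgeR adjusted p = 0.244), 0.39 ± 0.19 for Dusp6 (edgeR adjusted p = 0.333), 0.38 ± 0.16 for Spry2 (edgeR adjusted p = 0.284), -0.23 ± 0.11 for Spred1 (edgeR adjusted p = 0.324) and -0.23 ± 0.098 for Spred2 (edgeR adjusted p = 0.288). None of the 10 was called by edgeR, beside 0% of all genes. An unadjusted edgeR p under 0.05 was found for 4 of the 10, beside 2552 of all 16959 genes tested. DESeq2 gave an adjusted p to 2 of the 10 here and called 0 of these, with 5 of the 10 at an unadjusted p under 0.05, and it called 436 of all genes. Spry2 was called without the DMSO water library of replicate 1 (0.49, adjusted p = 0.0397), the library in which it was lowest. The 1 h interaction used the 4 h water group of each pretreatment as its reference. It is therefore not the difference of the 1 h responses above, where MM401 cultures were compared with MM401 water of 1 h. In it 0 of the 10 were called by edgeR, beside 0% of all genes, while DESeq2 called 0 of the 10 and 5 of all genes. An unadjusted edgeR p under 0.05 was found for 0 of the 10, beside 1326 of all 16959 genes tested.

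Across the 20 libraries Pearson's r of log2 CPM was 0.98 for Dusp1 with Dusp14 and 0.97 for Dusp1 with Dusp6, the highest pairs, and 0.77 for Dusp4 with Dusp5, the lowest among the phosphatases. Some pairs across the families lay above the latter, with 0.87 for Dusp4 with Spry2, 0.85 for Dusp4 with Spred1 and 0.78 for Dusp1 with Spry2, while Dusp1 with Spry4 stood at 0.13 and Dusp5 with Spry4 at -0.00090. These libraries share their treatment groups, so the values describe the pattern over groups and carry no test. The search for like genes left out those below the filter on low counts and those with Gm-number, Rik, Mir, Snor, LOC or mt- names. Of the rest, those most like Dusp1 were Fosb (r = 0.992), Nr4a1 (r = 0.991) and Junb (r = 0.991), all immediate early transcription factors. Dusp14 was most like Nr4a3 (r = 0.993), Arl5b (r = 0.992) and Fosb (r = 0.991), and Dusp6 most like Adrb1 (r = 0.983), Btg1 (r = 0.981) and Fos (r = 0.979). Dusp4, with its more lasting rise, was most like Spty2d1 (r = 0.984), Shisa2 (r = 0.978) and Zfp275 (r = 0.976), and Dusp5 most like Csrp2 (r = 0.976), Setd7 (r = 0.974) and Akap12 (r = 0.970). Spry2 was most like Sstr1 (r = 0.952), Spred1 most like Plppr4 (r = 0.970) and Spred2 most like Mrtfa (r = 0.967). Among the genes searched, Spry4 and Spry1 had no close match, with 0.867 for Nim1k and 0.801 for Ccnq as their highest values.

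The surrounding pathway was followed through 7 gene lists, also chosen with earlier results of these data known. The counts below cover the genes of each list that passed the filter on low counts. Of 17 other dual-specificity phosphatases tested, 4 rose and 6 fell after 1 h under DMSO (2 and 6 at 4 h), with a median log2 difference at 1 h of -0.17. For this and the lists that follow under DMSO, the same over all genes is 20% higher and 24.5% lower at 1 h, 23.7% higher and 25.5% lower at 4 h, and a median of -0.038 at 1 h. The JNK and p38 phosphatases Dusp16 (39.2 ± 2.63 to 93.7 ± 7.04 CPM, log2 difference 1.26) and Dusp10 (20.4 ± 2.85 to 44.0 ± 3.18 CPM, 1.11) rose, and the ERK phosphatase Dusp7 (14.2 ± 3.03 to 6.85 ± 0.629 CPM, -1.05) fell. Dusp16 was also called lower in MM401 water at 4 h than at 1 h (-0.44, edgeR adjusted p = 0.00182), and under MM401, against water of the same time, it rose by 0.80 ± 0.060 at 1 h. Of 20 other inhibitors of receptor tyrosine kinase signalling, 4 rose and 6 fell at 1 h (7 and 5 at 4 h), with a median of 0.087. Errfi1, an inhibitor of the EGF receptor, rose most (36.0 ± 4.30 to 91.7 ± 8.36 CPM, 1.35), and the cytokine and growth hormone signalling inhibitor Socs2 fell (8.35 ± 0.810 to 5.73 ± 0.153 CPM, -0.54). With the shallow library included 6 of these 20 were called.

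Among the genes that drive the cascade, 13 of 23 growth factor ligands rose and 1 fell at 1 h (15 and 1 at 4 h), with a median of 0.37. Bdnf, the ligand of TrkB, went up by 2.18 ± 0.10 and Hbegf, a ligand of the EGF receptor, by 0.95 ± 0.20 on the log2 scale. Under MM401, against water of the same time, Hbegf differed by 0.40 ± 0.20 at 1 h and was not called (edgeR adjusted p = 0.133). Of 18 receptor tyrosine kinases 6 rose and 1 fell at 1 h (9 and 1 at 4 h), with a median of 0.15. Among these were Ntrk2, which encodes TrkB (0.82 ± 0.095), Fgfr2 (1.00 ± 0.12) and Ret (1.08 ± 0.15). Fgfr2 (-0.65) and Ret (-0.84) were called lower in MM401 water at 4 h than at 1 h (edgeR adjusted p = 0.0293 and 0.0218), and under MM401, against water of the same time, they rose by 0.61 ± 0.12 and 0.58 ± 0.15 at 1 h. These calls came to 4 with the shallow library included at 1 h and to 6 with plain library sizes at 4 h. Of 33 genes of the core ERK cascade 9 rose and 3 fell at 1 h (16 and 5 at 4 h), beside 20% and 24.5% (23.7% and 25.5%) of all genes, with a median of 0.090. Mapk3, which encodes ERK1, fell (-0.34 ± 0.12), and Rasgrp1, an activator of Ras, rose (0.78 ± 0.062).

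Of 16 JNK and p38 kinase genes 4 rose and 6 fell at 1 h (6 and 4 at 4 h), beside 20% and 24.5% (23.7% and 25.5%) of all genes, with a median of -0.14, and 6 were called with the shallow library included. Of 19 ETS factors and other ERK-responsive transcription factor genes 15 rose and 1 fell at 1 h (10 and 4 at 4 h), with a median of 0.50. Fos (40.3 ± 10.6 to 256 ± 30.6 CPM), Fosl2 (41.8 ± 2.98 to 258 ± 26.0 CPM) and Egr2 (3.89 ± 0.773 to 15.6 ± 0.851 CPM) led this list, and Elk1 fell by 0.27 ± 0.069 on the log2 scale. Their log2 differences of 2.66 ± 0.17, 2.62 ± 0.10 and 2.01 ± 0.14 stand beside 2.87 for Dusp1 and 2.41 for Dusp14.

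Under MM401 the same lists gave, at 1 h, 4 higher and 6 lower calls among the other phosphatases, 7 and 5 among the other inhibitors, 12 and 1 among the ligands, 10 and 0 among the receptors, 11 and 3 in the core cascade, 5 and 4 among the JNK and p38 kinases and 15 and 1 among the transcription factors, beside 18.1% and 21.8% of all genes. At 4 h they gave 3 and 4, 8 and 5, 13 and 2, 9 and 1, 10 and 6, 4 and 5, and 13 and 3 in the same order, beside 23% and 21.7% of all genes. At 1 h the calls in the core cascade came to 7 with the shallow library included, 8 without the bicuculline or the water library of replicate 2 and 9 without the water library of replicate 3. The receptors came to 6 with the shallow library and 5 with plain library sizes, and the transcription factors to 9 with plain library sizes.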

How the data were processed

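The authors deposited raw counts for 24984 genes in 21 libraries, which were used unchanged. The counting tool was featureCounts over whole gene spans, per the file headers, on mm10, and the submitters' processing notes also name Bowtie2, UMI-tools, deepTools and DESeq2. Strand use and the annotation release are not given in the sources used here. No member overlaps another gene that the table lists at a single position. The 412 genes listed with several positions were not part of this check. The table's starts lie 1 base before RefSeq's for 8 of the 10 members, all but Dusp5 and Dusp14. Counts were fitted with edgeR 4.0.16 (R 4.3.3, limma 3.58.1): filterByExpr by group (minimum count 10, minimum total 15), TMM, and robust quasi-likelihood with a mean per group over 20 libraries and no block. Adjusted p-values cover all 16959 genes tested, and SE are of log2 differences. Correlations use log2 CPM with a prior count of 2. In the named lists, at most 3 genes per direction with a mean of at least 2 CPM were eligible by size of change, of which some are printed. Alternatives were all 21 libraries, plain library sizes, no filter, a replicate block, DESeq2 1.42.0, another water reference and each library left out. Replicate numbers come from the labels, and same-numbered libraries deviated together (every r over 0.1, from 0.11 to 0.17) in 1 of 7 comparisons with 3 pairs, MM401 against DMSO after 4 h of bicuculline. The members and lists were chosen with earlier results of these data known. The fit was tested on simulated data.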

Additional observations from a re-analysis of the deposited data

How the results depend on the processing

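The alternatives left the calls of Dusp1, Dusp4 and Dusp14 against water in place in all 4 comparisons; the other calls that were lost are named beside their values. Of the 10 genes, the number called after 4 h of bicuculline under MM401 was 8 and ranged from 5 to 8 when 1 library was left out. For 4 h against 1 h under MM401 it was 7, and 3 with all 21 libraries, 4 without the low-count filter, 4 with the replicate block, and 3 to 5 with 1 library left out. For the interaction at 4 h it was 0, and 0 to 1 with 1 library left out. The replicate block moved no other count of members by over 1.5 times, and with it 0 members were called between MM401 and DMSO after 4 h of bicuculline (Dusp1 adjusted p = 0.498).

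Signs of single genes were followed in 8 of the 12 comparisons, without MM401 water at 4 h against 1 h, MM401 against DMSO in water or at 1 h of bicuculline, and the interaction at 1 h. In these 8 they turned only for differences that were not called as reported. With plain library sizes these were Spry4 (-0.19) and Spred2 (-0.13) at 1 h under MM401, Dusp4 (0.062) and Spred1 (0.042) between 4 h and 1 h under MM401, Spred2 between MM401 and DMSO at 4 h of bicuculline (0.033), and Dusp5 (0.16) and Dusp14 (0.16) in the interaction at 4 h. Spry4 was 0.012 with DESeq2 at 1 h under DMSO and -0.11 at 1 h under MM401 with water at 4 h as reference. With 1 library left out, Spry4 ranged from -0.13 to 0.13 at 1 h and from -0.16 to 0.056 at 4 h under DMSO, from -0.034 to 0.062 at 1 h under MM401 and from -0.056 to 0.0058 between the times under DMSO. Spry1 ranged from -0.29 to 0.15 at 4 h under DMSO and from -0.070 to 0.17 between the times under MM401, where Dusp4 ranged from -0.12 to 0.028 and Spred1 from -0.11 to 0.017. In the interaction at 4 h Dusp5 ranged from -0.32 to 0.28 and Dusp14 from -0.12 to 0.044. The cause was not tested. Spry1 had the fewest counts, 212 to 591 per library, and the largest biological coefficient of variation of the 10 genes, 13.8%.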
